A study of Homo sapiens with 7 samples.

Results

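The IER and ZFP36 immediate early genes comprise 6 genes, IER2, IER3, IER5, ZFP36, ZFP36L1 and ZFP36L2, chosen by name from the 22257 genes of the deposited tables. Each of the 6 has 1 RefSeq transcript in the tables, so the rule of taking the most abundant transcript left no choice. They were followed in RL and JeKo-1, human lines that the submitters label as mantle cell lymphoma (MCL), a B-cell lymphoma. RL cells were untreated (2 libraries) or given a BTK inhibitor for 6 h (2 libraries), and JeKo-1 cells were untreated (1 library) or given the inhibitor for 6 h (2 libraries). All were grown in serum-containing RPMI medium, the series title names ibrutinib as the inhibitor, and no dose is stated. The count column of the JeKo-1 control carries the same 6 h mark as its treated columns. The labels do not say whether 2 libraries of 1 group are separate cultures, so p-values cover the spread between libraries alone, and that spread may be technical.

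Immediate early genes are transcribed within minutes of a signal, without new protein synthesis, and in B cells the B-cell receptor switches them on through BTK, calcium, MAP kinase and NF-kB. IER2 and IER5 are nuclear proteins that share a conserved N-terminal domain, and IER5 is known to bring the phosphatase PP2A to the heat shock factor HSF1. IER3, also called IEX-1, is unrelated in sequence and is known as a stress-induced regulator of cell survival. ZFP36 (tristetraprolin, TTP), ZFP36L1 and ZFP36L2 are zinc finger proteins that bind AU-rich elements in the 3' untranslated region (UTR) of messenger RNAs and recruit the CCR4-NOT deadenylase, which shortens the poly(A) tail and speeds decay. In mice, ZFP36L1 and ZFP36L2 together are known to keep developing B cells quiescent while antigen receptor genes are rearranged.

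The letters that the ZFP36 proteins recognise are also present in the messages of all members but IER2, and a few sites are shown. The heptamer TATTTAT was searched on the sense strand of each 3' UTR, in the GENCODE 29 transcript (GRCh38) paired with the counted RefSeq accession. All 6 members were paired. The capitals mark the heptamer and the flanks are 7 bases on each side.
IER3 site 4: ctcttggTATTTATtgagctt
IER5 site 3: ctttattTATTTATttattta
ZFP36 site 1: ggcccttTATTTATgacgact
ZFP36L1 site 1: caaaacgTATTTATtgccaaa
ZFP36L1 site 2: ttgttcaTATTTATcgggatg
ZFP36L1 site 3: gttggatTATTTATtttagaa
ZFP36L2 site 1: tttaactTATTTATtatcttg
ZFP36L2 site 2: catactgTATTTATcaagtat
ZFP36L2 site 3: tatgtaaTATTTATttcatta
IER3 and IER5 held 4 heptamers each, ZFP36, ZFP36L1 and ZFP36L2 held 3 each, and IER2 held 0. In IER5, 3 of the 4 overlap in 1 run of repeated ATTT. Of genes whose 3' UTR is within 20% of the same length, 0.488% held at least as many as IER3 and 3.51% at least as many as IER5. The shares with at least as many were 1.32% for ZFP36, 4.62% for ZFP36L1 and 4.48% for ZFP36L2. Each compared gene was represented by the longest 3' UTR among its protein-coding transcripts. For IER2, 24.1% of genes with a 3' UTR of like length held at least 1. A match is a description of the letters and not a shown binding site.

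**Figure D1:**
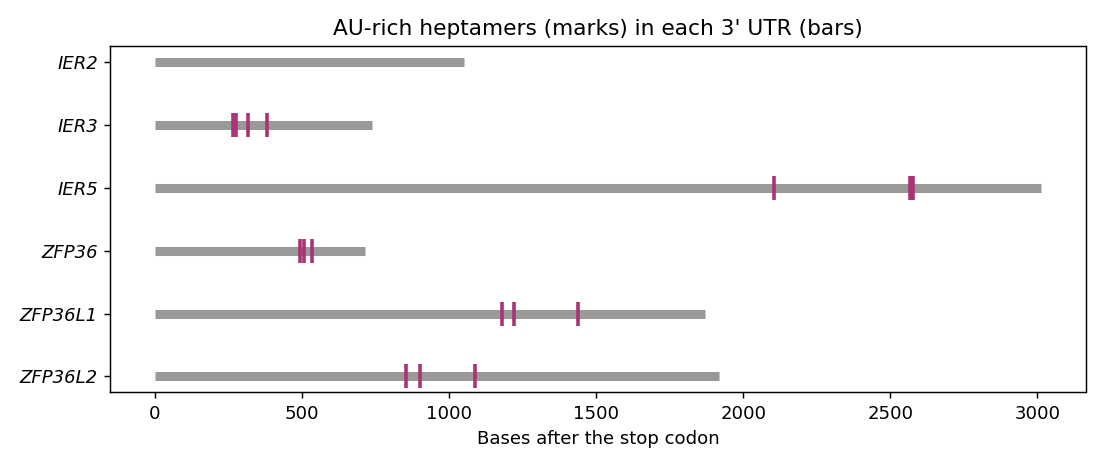
Position of TATTTAT heptamers (marks) in the 3' UTR of each gene (grey bars, from the stop codon to the end of the transcript), in bases after the stop codon. IER2 has no mark, and those of IER3 and ZFP36 lie within UTRs of 737 and 713 bases.

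Promoters are shown for the members that were lower after treatment in both lines, IER2, IER5 and ZFP36L1, as the 250 bases before the transcript start in RefSeq (GRCh38.p14). Of the 6 members, 4 had an entry, IER2, IER5, ZFP36 and ZFP36L1, the last with 2 starts, of which the one with a match is shown. Capitals mark matches, on either strand, to any of 7 motifs: the serum response element known as the CArG box, the kappa-B element, the ETS core CCGGAA, the EGR motif GCGNGGGCG, the cAMP response element TGACGTCA, the AP-1 motif TGANTCA and the FOXO motif GTAAACA.
IER2, chr19:13150161-13150410, plus strand: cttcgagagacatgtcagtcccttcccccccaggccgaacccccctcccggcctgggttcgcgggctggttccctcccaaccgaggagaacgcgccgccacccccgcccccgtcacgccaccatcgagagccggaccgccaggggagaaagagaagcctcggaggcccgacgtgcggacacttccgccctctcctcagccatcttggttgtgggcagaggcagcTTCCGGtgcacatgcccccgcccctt
IER5, chr1:181088450-181088699, plus strand: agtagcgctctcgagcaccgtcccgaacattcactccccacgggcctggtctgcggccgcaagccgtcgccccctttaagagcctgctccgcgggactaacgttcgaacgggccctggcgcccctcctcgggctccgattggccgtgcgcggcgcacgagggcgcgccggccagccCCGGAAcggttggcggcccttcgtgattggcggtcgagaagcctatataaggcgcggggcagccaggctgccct
ZFP36L1, chr14:68793417-68793666, minus strand: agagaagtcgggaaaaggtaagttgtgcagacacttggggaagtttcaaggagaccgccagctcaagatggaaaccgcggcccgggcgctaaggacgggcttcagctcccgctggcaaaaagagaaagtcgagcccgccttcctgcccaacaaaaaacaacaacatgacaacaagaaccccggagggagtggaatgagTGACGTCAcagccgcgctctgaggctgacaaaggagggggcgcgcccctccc
The IER2 window held 1 ETS core, on the minus strand, beginning 26 bases before the start, and the IER5 window 1 ETS core on the plus strand, beginning 74 bases before it. An ETS core is present in 14.5% of all promoter windows of this length. The ZFP36L1 window held the palindromic cAMP response element, beginning 52 bases before the start, which 1.65% of windows hold. The ZFP36 window and the other ZFP36L1 window held none of the 7. The CArG box (1.16% of windows), kappa-B (5.21%), EGR (8.41%), AP-1 (6.57%) and FOXO (2.98%) motifs had no match in these windows. Matched motifs did not overlap each other.

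The libraries held 19.1 to 33.5 M counts with 1 transcript per gene, the shallowest and the deepest both being treated RL. All 12 B-cell and MCL markers had reads in every group. In CPM (read counts scaled to library size over the 7 libraries) they summed to 3522 and 3635 in the RL controls, 4026 and 4050 in treated RL, 2100 in the JeKo-1 control and 2051 and 2142 in treated JeKo-1. The part of the higher sum of treated RL in the results was not tested. Of these, CD5 was at 17.5 CPM in untreated RL and 0.101 CPM in untreated JeKo-1. Sums over 12 T and NK cell genes reached at most 1.25 CPM (RL) and 9.84 CPM (JeKo-1), with CD3G at 0 in JeKo-1 and treated RL. Sums over 12 myeloid genes reached at most 2.94 CPM (RL) and 1.37 CPM (JeKo-1), with MPO, S100A8 and S100A9 at 0. Those over 12 epithelial and stromal genes lay between 92.2 and 97.3 CPM in RL, controls and treated alike, and between 2.20 and 3.50 CPM in JeKo-1, where EPCAM was at 0. Within the RL sum, PECAM1 was called higher after treatment (log2 fold change 1.35 ± 0.17) and CDH1 lower (-0.43 ± 0.12). BTK, the target of the inhibitor, averaged 136 CPM in untreated RL, where it fell by 0.29 ± 0.05 on the log2 scale with treatment, and stood at 123 CPM in the JeKo-1 control. In RNA from a whole culture, a lower level in every cell and loss of expression in some cells cannot be told apart.

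In untreated cells, IER5 stood highest per length in both lines, while the ZFP36 genes were ordered differently in RL and JeKo-1. Levels between genes are given as CPM per kb of the paired transcript. In untreated RL the order was IER5 (11.9 and 12.1 CPM per kb in the 2 libraries), ZFP36 (8.76 and 9.89), ZFP36L1 (8.14 and 8.73), IER2 (5.65 and 6.51), IER3 (3.09 and 3.61) and ZFP36L2 (2.14 and 2.17). The libraries of neighbouring genes did not overlap in this order, although ZFP36 and ZFP36L1 lay close, with the lowest ZFP36 value just above the highest of ZFP36L1. In the single untreated JeKo-1 library the order was IER5 (7.20), IER2 (5.82), IER3 (2.63), ZFP36L2 (1.97), ZFP36L1 (1.69) and ZFP36 (1.18 CPM per kb), with no spread to set neighbours apart. ZFP36 thus stood second of the 6 in RL and last in JeKo-1. After treatment the RL order was IER5 (8.72 and 8.82 CPM per kb), ZFP36 (7.65 and 8.69), ZFP36L1 (5.33 and 5.63), ZFP36L2 (3.20 and 4.14), IER2 (2.74 and 2.91) and IER3 (1.92 and 2.09), so that ZFP36L2, last in the controls, stood above IER2 and IER3. In treated JeKo-1 it was IER5 (4.04 and 4.08), IER2 (2.62 and 2.98), IER3 (1.82 and 2.59), ZFP36L2 (1.73 and 1.84), ZFP36 (0.997 and 1.30) and ZFP36L1 (0.544 and 0.567), where the libraries of IER3 and ZFP36L2 overlapped.

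Between the untreated lines, 3 of the 6 genes were higher in RL and none was higher in JeKo-1. The contrast used edgeR's quasi-likelihood test in a model of all 7 libraries, in which the single JeKo-1 control is assumed to vary like the other groups. Most genes differ between these lines, with 39.1% of all tested genes called higher in RL, 37.2% lower and 76.4% in either direction, so 3 of 6 is near that background. ZFP36 had 768 and 734 counts in the RL controls and 83 in the JeKo-1 control, or 17.7 and 15.6 against 2.11 CPM. This was a 7.90-fold higher level in RL (log2 difference 2.98 ± 0.17, standard error; adjusted p = 3.5e-12). ZFP36L1 had 1211 and 1219 counts against 213, or 27.9 and 26.0 against 5.40 CPM, and was 4.98-fold higher in RL (2.32 ± 0.12; adjusted p = 5.7e-13). IER5 was at 50.53 and 50.01 CPM against 30.1 CPM, 1.67-fold higher in RL (0.74 ± 0.07; adjusted p = 1.5e-08). The RL libraries were above the JeKo-1 control in all of these. IER2 was at 13.6 and 11.8 CPM against 12.1 CPM, so the JeKo-1 value lay between both RL values (0.06 ± 0.12; adjusted p = 0.622). ZFP36L2 was at 8.004 and 7.905 CPM against 7.28 CPM (0.13 ± 0.14; adjusted p = 0.418). IER3 was at 3.84 and 4.50 CPM against 3.27 CPM (0.35 ± 0.19; adjusted p = 0.0943), and passed only without RL control replicate 1 (adjusted p = 0.0456).

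**Figure D2:**
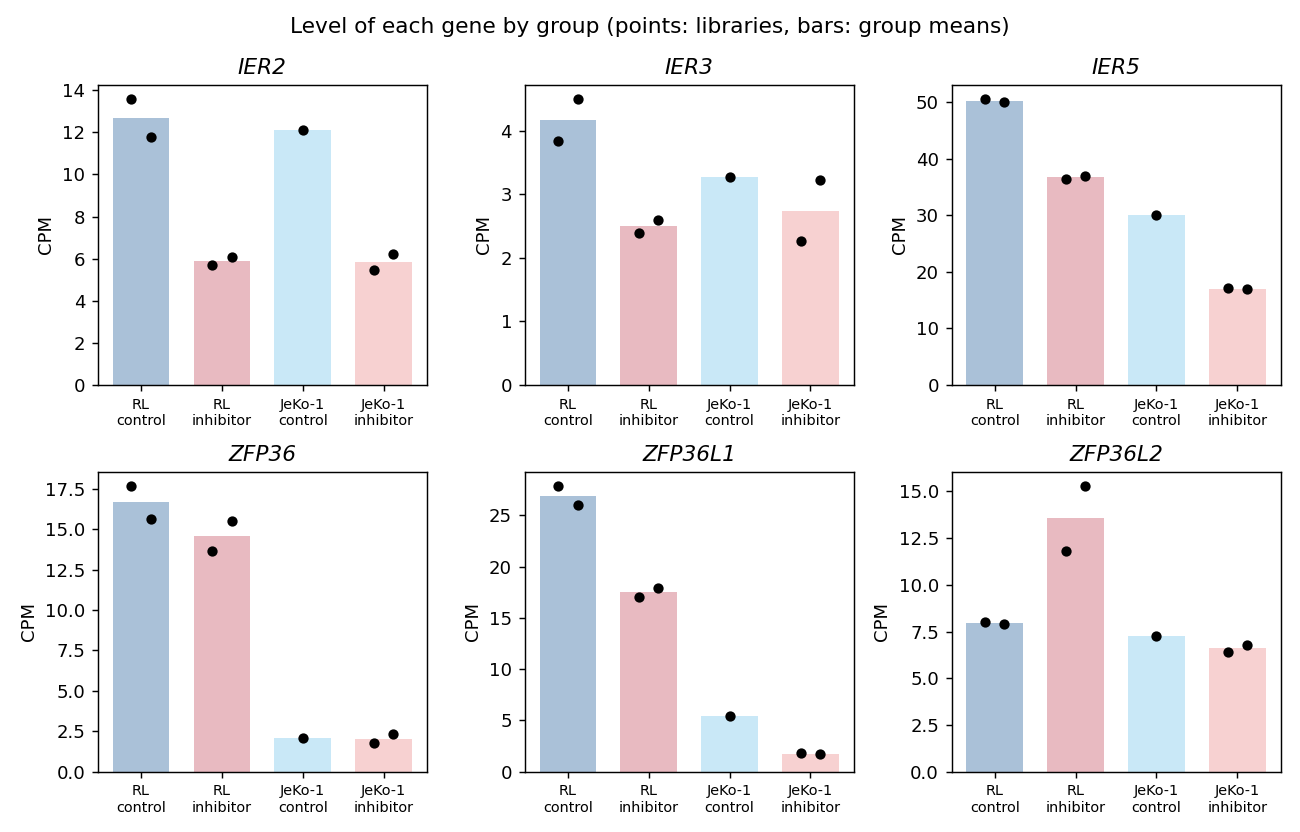
Level of each gene in CPM for the 4 groups, with points for libraries and bars for group means, on a linear axis from 0. ZFP36L2 is the gene whose treated RL libraries lie above the controls, at 11.8 and 15.3 against 8.004 and 7.905 CPM.

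In RL treated for 6 h, all 3 IER genes and ZFP36L1 fell, ZFP36L2 rose, and ZFP36 was not called. Thus 4 of 6 members were lower, where 15.3% of all tested genes were, and 1 was higher, where 15.1% were (30.4% in either direction). The median log2 fold change of the 6 was -0.535, against 0.007 over all tested genes. Here and for JeKo-1, p-values come from edgeR's quasi-likelihood test, adjusted over all transcripts by the Benjamini-Hochberg method.

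IER2 fell 2.14-fold in RL. Its libraries held 13.6 and 11.8 CPM in the controls and 5.71 and 6.07 CPM in the treated cells (log2 fold change -1.10 ± 0.10; adjusted p = 8.4e-06). The treated libraries lay well below both controls, and 1.13% of all tested genes fell as far or farther. IER3, the lowest of the IER genes, went from 3.84 and 4.50 CPM to 2.39 and 2.60 CPM (-0.73 ± 0.13; adjusted p = 0.00149). It rests on few reads, 167 and 211 in the controls and 83 and 158 after treatment. The library kit does not mark strand, and GENCODE 29 annotates an antisense gene over IER2 (AC011446.2) and over IER3 (IER3-AS1), so reads of each pair cannot be told apart. IER5 had the tightest values of the set, 50.53 and 50.01 CPM in the controls and 36.5 and 36.9 CPM after treatment (-0.45 ± 0.05; adjusted p = 4.1e-05). Its fall was smaller than those of IER2 and IER3, and 7.80% of all tested genes fell as far or farther.

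The ZFP36 genes changed in different directions in RL. ZFP36L1 fell from 27.9 and 26.0 CPM to 17.0 and 17.9 CPM (-0.62 ± 0.07; adjusted p = 3.2e-05), with all treated libraries below the controls. ZFP36L2 rose from 8.004 and 7.905 CPM to 11.8 and 15.3 CPM (0.79 ± 0.11; adjusted p = 2.7e-04). The controls were nearly equal and the treated libraries were apart from each other, both above the controls. Without treated replicate 2, the higher library, the rise was 0.58 on the log2 scale (adjusted p = 6.2e-04). ZFP36 itself was at 17.7 and 15.6 CPM in the controls and 13.7 and 15.5 CPM after treatment (-0.18 ± 0.09; adjusted p = 0.144). The treated libraries were lower but the gap to the nearest control was smaller than the spread within either group.

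In treated JeKo-1, IER2, IER5 and ZFP36L1 fell and none of the 6 rose. These 3 of 6 compare with 14.9% of all tested genes called lower, 13.4% called higher and 28.3% in either direction. The median log2 fold change of the 6 was -0.546, against -0.007 over all tested genes. Every JeKo-1 effect is measured from 1 control library, which has no replicate.

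ZFP36L1 had the largest response of the set. It fell from 213 counts in the control to 64 in each treated library, or from 5.40 to 1.81 and 1.73 CPM, a log2 fold change of -1.62 ± 0.20 (adjusted p = 5.7e-15). This is a 3.06-fold lower level, and 1.25% of all tested genes fell as far or farther. IER2 fell from 12.1 to 5.46 and 6.20 CPM (-1.06 ± 0.13; adjusted p = 9.7e-14), close to its values in treated RL. IER5 fell from 30.1 to 17.1 and 16.9 CPM (-0.83 ± 0.09; adjusted p = 6.6e-18). For these 3 genes, both treated libraries lay far below the control. These small p-values come from a fit with 1 residual degree of freedom, whose spread was in effect borrowed from all genes. They do not measure the spread of each gene's own libraries and cannot be ranked against the p-values of RL. By DESeq2's Wald test the adjusted p-values were 7.9e-04 for ZFP36L1, 4.0e-04 for IER2 and 3.3e-06 for IER5.

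The other 3 genes were not called in JeKo-1. IER3 was at 3.27 CPM in the control and 2.26 and 3.22 CPM after treatment (-0.26 ± 0.20; adjusted p = 0.372), with treated replicate 2 almost at the control level. ZFP36L2 was at 7.28 CPM and then 6.39 and 6.80 CPM (-0.15 ± 0.15; adjusted p = 0.497). ZFP36 was at 2.11 CPM and then 1.78 and 2.33 CPM, on either side of the control (-0.04 ± 0.24; adjusted p = 0.926). With 63 to 86 counts in each JeKo-1 library, a small change of ZFP36 was not detectable at this depth.

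**Figure D3:**
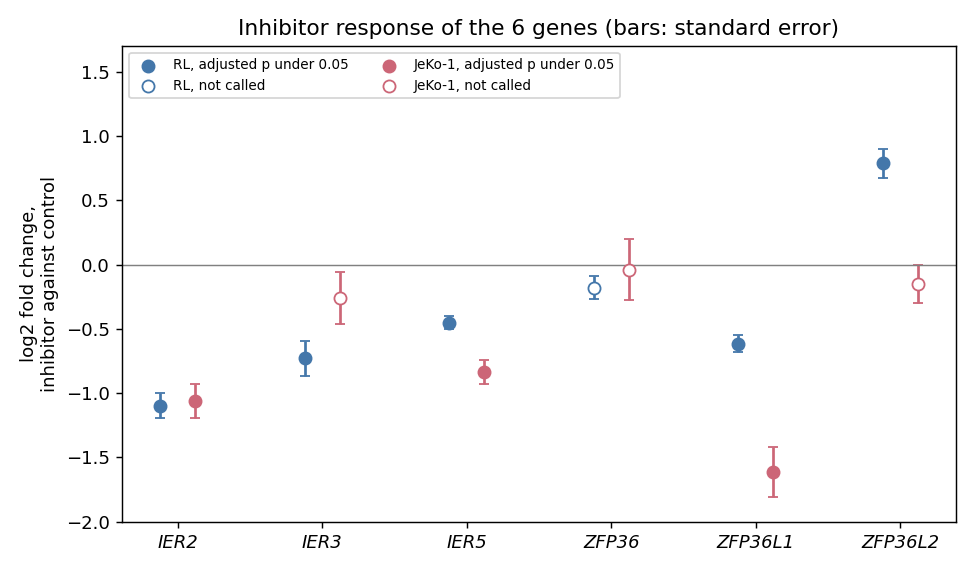
Log2 fold change of inhibitor against control for each gene in RL (blue) and JeKo-1 (red), with bars of 1 standard error and filled points for an adjusted p under 0.05. IER2 lies near -1.1 in both lines, at -1.10 and -1.06, and ZFP36L2 is the only point called above 0.

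The response differed between the lines for 3 of the 6 genes, by a test of the difference itself, where 17.8% of all tested genes were called (8.95% higher and 8.82% lower). All 3 were on the higher side. ZFP36L1 fell farther in JeKo-1, with a difference of the log2 fold changes, RL minus JeKo-1, of 0.98 ± 0.17 (adjusted p = 4.5e-04). ZFP36L2 rose in RL and was not called in JeKo-1, a difference of 0.92 ± 0.18 (adjusted p = 0.00141). IER5 fell farther in JeKo-1 by 0.37 ± 0.09 (adjusted p = 0.00941), a call that DESeq2's Wald test did not make (adjusted p = 0.0691). For IER2 the difference was -0.05 ± 0.16 (adjusted p = 0.904), for ZFP36 -0.16 ± 0.24 (adjusted p = 0.728) and for IER3 -0.49 ± 0.26 (adjusted p = 0.216). A fall of IER3 in RL but not in JeKo-1 is therefore not shown to be a difference between the lines. The IER3 values depend on single JeKo-1 libraries. Without treated replicate 1 the JeKo-1 change was -0.013 and the line difference -0.72 (adjusted p = 0.0736), and without treated replicate 2 they were -0.52 and -0.21 (adjusted p = 0.650).

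The make-up of each family differed between control and treated libraries. Over the summed CPM per kb of the ZFP36 genes in RL, ZFP36L2 made up 10.4% and 11.2% in the controls and 19.8% and 22.4% after treatment. ZFP36L1 went from 42% and 42.77% to 33.0% and 30.5%, whereas ZFP36 held 46.0% to 47.6% in all 4 libraries. In JeKo-1 the largest part was ZFP36L2, with 40.7% in the control and 52.5% and 49.9% after treatment, and ZFP36L1 went from 35.0% to 17.2% and 14.7%. The larger share of ZFP36L2 in treated JeKo-1 came without a higher level (7.28 CPM, then 6.39 and 6.80). The ZFP36 family sum there went from 4.84 to 3.29 and 3.69 CPM per kb. Among the IER genes in RL, IER5 made up 55.7% and 56.3% in the controls and 65.2% and 63.8% after treatment, and IER2 went from 30.1% and 26.7% to 20.5% and 21.1%. In JeKo-1 the share of IER5 was 46.0% in the control and 47.9% and 42.03% after treatment, on either side of it. These shares are descriptions of the same values and were not tested.

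**Figure D4:**
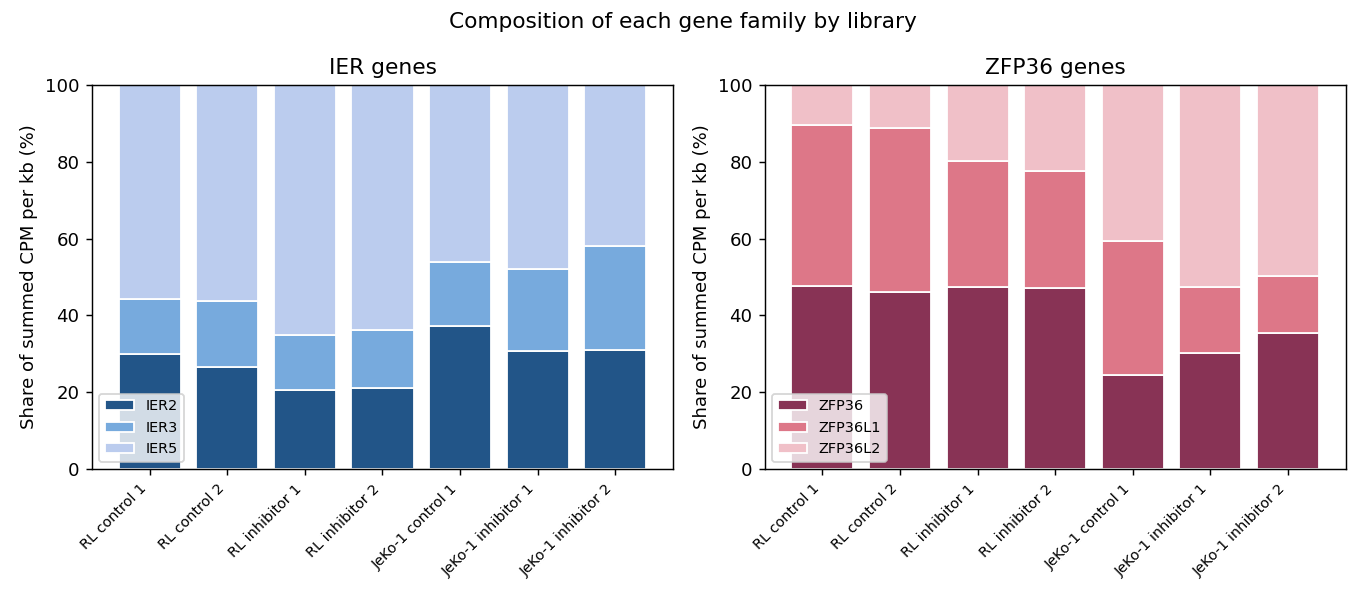
Share of each gene in the summed CPM per kb of its family, in percent, for the 7 libraries. The lightest segment of the ZFP36 bars, ZFP36L2, is larger in treated RL (19.8% and 22.4%) than in the RL controls (10.4% and 11.2%).

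Genes with the most similar profile were taken by the root mean square difference between centred log2(CPM + 1) values over the 7 libraries, among genes averaging at least 5 CPM. Such likeness reflects the level difference between the lines as well as the response, and all points share the same libraries. Nearest to IER2 were the NF-kB subunit NFKB2 (0.158), the prostaglandin receptor PTGER4 (0.180) and the fatty acid synthase FASN (0.203), where the median over 10027 genes was 0.611. NFKB2 had log2 fold changes of -0.76 in RL and -0.75 in JeKo-1. Nearest to IER5 were ASPHD2 (0.0344), MACC1 (0.0797) and ANKRD5 (0.0850), with a median of 0.687 over genes. ASPHD2 had log2 fold changes of -0.42 in RL and -0.87 in JeKo-1, beside -0.45 and -0.83 for IER5. For IER3, which averages under 5 CPM itself, the nearest were B4GALT2 (0.0763), CLN6 (0.0948) and CENPV (0.0957). Nearest to ZFP36 were KATNAL2 (0.0711), IER3IP1 (0.0853) and ARID3A (0.0862). Nearest to ZFP36L1 were the diacylglycerol kinase DGKG (0.114), the integrin ITGB2 (0.122) and the tetraspanin CD82 (0.136). Their log2 fold changes were -0.56, -0.93 and -0.88 in RL, beside -0.62 for ZFP36L1. In JeKo-1 they were -2.80, -2.21 and -2.42, beside -1.62. Their treated JeKo-1 libraries held 0.190 to 0.622 CPM, where adding 1 to the CPM narrows differences between profiles. For ZFP36L2, the nearest were FGFRL1 (0.0752), LIMD1 (0.114) and the ceramide kinase CERK (0.121). Within the set, the closest pair was IER2 and IER3 (0.304) and the farthest IER3 and ZFP36L1 (1.28).

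Among other immediate early genes, more fell than rose in either line. Of 24 tested immediate early transcription factors in RL, 14 fell and 3 rose (median log2 fold change -0.721), and of 20 in JeKo-1, 9 fell and 1 rose (-0.412). The shares over all tested genes were 15.3% lower and 15.1% higher in RL, and 14.9% lower and 13.4% higher in JeKo-1. On the log2 scale, the zinc finger factor EGR2 fell by 1.63 ± 0.23 in RL and by 2.92 ± 0.36 in JeKo-1. MYC fell in RL (-2.55 ± 0.11) and was not called in JeKo-1 (-0.08 ± 0.06), and its difference between the lines was called (-2.47 ± 0.12). Going the other way, ID3 rose in RL (0.37 ± 0.06) and in JeKo-1 (1.16 ± 0.11). ID2 rose in RL (0.45 ± 0.05) and fell in JeKo-1 (-0.46 ± 0.08). JUN, an AP-1 subunit, fell by 1.32 ± 0.11 in RL and was not called in JeKo-1 (-0.83 ± 0.48; adjusted p = 0.193), with a difference between the lines that was not called either (adjusted p = 0.437). Of the other immediate early genes, 17 of 27 fell and 6 rose in RL (-0.602), and 10 of 26 fell and 4 rose in JeKo-1 (-0.216). The phosphatase gene DUSP2 fell in both, by 1.87 ± 0.07 and 1.44 ± 0.12. IER5L, the paralogue of IER5, had 9 to 21 counts in each library and was not called in RL (adjusted p = 0.842) or JeKo-1 (adjusted p = 0.507). SRF, the transcription factor of serum response elements, fell by 0.48 ± 0.09 in RL and by 0.38 ± 0.07 in JeKo-1.

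**Figure D5:**
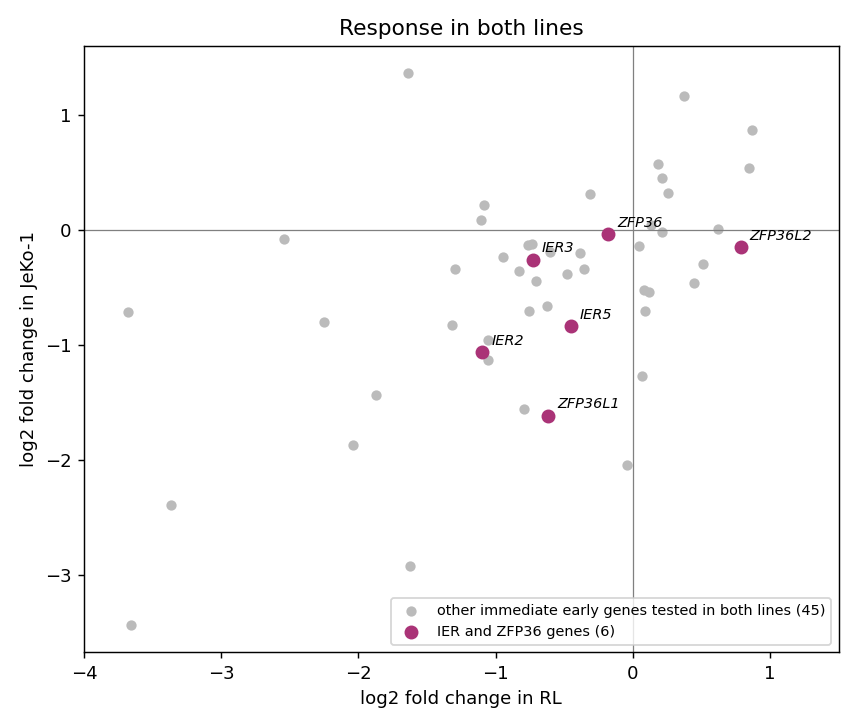
Log2 fold change in RL (horizontal) against that in JeKo-1 (vertical) for the 6 genes (purple, named) and 45 other immediate early genes tested in both lines (grey). IER2, at -1.10 and -1.06, and ZFP36L1, at -0.62 and -1.62, lie in the lower left part, below 0 on both axes, and ZFP36L2, at 0.79 and -0.15, lies to the right of 0.

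Messages known from other studies as AU-rich targets of the ZFP36 family went in both directions. Of 29 tested in RL, 9 rose and 14 fell (median -0.025), and of 25 in JeKo-1, 5 rose and 6 fell (-0.083). Over all tested genes, 15.1% were higher and 15.3% lower in RL, and 13.4% higher and 14.9% lower in JeKo-1. The list includes IER3 and shares MYC, FOS, CCL3, PIM1, PIM3, MCL1, DUSP1 and NFKBIZ with the immediate early lists. The activation marker CD83 fell by 1.72 ± 0.06 in RL and by 1.36 ± 0.10 in JeKo-1. The transcription factor IRF8 rose in RL (0.95 ± 0.05) and fell by 0.20 ± 0.08 in JeKo-1. The kinase PIM1 rose in both, by 0.87 ± 0.07 in each. The apoptosis inhibitor BIRC3 rose in JeKo-1 (1.26 ± 0.09) and was not called in RL (0.0034 ± 0.05), a difference between the lines that was called (RL minus JeKo-1, -1.27 ± 0.10; adjusted p = 3.4e-08).

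The ZFP36 proteins act through the deadenylation and decay machinery. Of its 31 genes, 5 rose and 5 fell in RL (median 0.007) and 7 rose and 1 fell in JeKo-1 (0.058). The number called in either direction is near the share over all tested genes, 30.4% in RL and 28.3% in JeKo-1. By direction, 13.4% of all tested genes were higher and 14.9% lower in JeKo-1, so the calls of this list leaned to the higher side there. BTG2, which binds the deadenylase and is itself an immediate early gene, rose by 0.85 ± 0.06 in RL and by 0.54 ± 0.07 in JeKo-1, and the deadenylase subunit PAN2 rose by 0.42 ± 0.06 and 0.49 ± 0.07. Of 19 other RNA-binding proteins, 2 rose and 6 fell in RL (-0.107) and 3 rose and 6 fell in JeKo-1 (-0.159). Among these, HNRNPD (AUF1), which also binds AU-rich elements, fell by 0.23 ± 0.05 in RL and by 0.33 ± 0.07 in JeKo-1. Of 34 kinases and other regulators, 3 rose and 5 fell in RL (0.009), and 0 rose and 12 fell in JeKo-1 (-0.16), beside 14.9% of all tested genes lower in JeKo-1. MAPKAPK2 (MK2), the kinase that phosphorylates ZFP36, fell by 1.41 ± 0.13 in JeKo-1, from 16.3 to a mean of 6.14 CPM, and was not called in RL (82.7 and then 83.6 CPM on average; adjusted p = 0.816). Its relative MAPKAPK3 fell by 0.68 ± 0.07 in RL and by 0.32 ± 0.09 in JeKo-1.

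The authors' deposited table gave log2 ratios for RL of -1.08 for IER2, -0.71 for IER3, -0.44 for IER5, -0.17 for ZFP36, -0.61 for ZFP36L1 and 0.79 for ZFP36L2. In the authors' deposited table for JeKo-1 the ratios were -1.0004 for IER2, -0.19 for IER3, -0.82 for IER5, 0.06 for ZFP36, -1.51 for ZFP36L1 and -0.06 for ZFP36L2. Those of the authors' deposited table differed in sign from the edgeR values in 1 case, ZFP36 in JeKo-1, which no test called.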

How the data were processed

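RNA from 7 libraries of RL and JeKo-1 cells was made into TruSeq RNA libraries, per the labels' protocols. CASAVA 1.8, BWA and Partek 6.6 with hg19 (GRCh37) are named without roles, per the submitters' processing notes. The authors deposited raw read counts for 34917 RefSeq transcripts of 22257 genes in 2 tables, 1 for each line, per the file headers. Columns headed FRKM were deposited as log2 values of quantile-normalized reads and were not tested. The authors' RL table adds a p-value and an FDR from a test that no header names. The header of the authors' JeKo-1 log2 ratio names an ALK inhibitor although its library columns name the BTK inhibitor. A joint table repeats 14 of the per-library columns and was not used here.

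Counts entered edgeR 4.0.16 (R 4.3.3; TMM, filterByExpr, quasi-likelihood test), with Benjamini-Hochberg adjustment over all transcripts tested: 25099 in RL, 23564 in JeKo-1 and 26362 in the model of all 7 libraries used for the line difference and the untreated lines. Calls were made below an adjusted p of 0.05. Residual degrees of freedom were 2, 1 and 3. CPM used TMM factors over all 7 libraries and all transcripts. Standard errors were taken as the absolute log2 fold change over the square root of the F statistic. Gene lengths were those of paired GENCODE 29 transcripts. Alternatives used limma 3.58.1, DESeq2 1.42.0, other scaling, no filter, and fits without 1 library. In simulated counts, 100% of 50 transcripts changed by a log2 fold of 1 were called in RL (25041 tested), 94% in JeKo-1 (23404) and 96% for the difference (26283). Over all simulated fold sizes, unchanged transcripts made up 11 calls in RL, 6 in JeKo-1 and 5 for the difference, or 6.32%, 3.97% and 3.85% of all calls. The simulation gave every transcript the same relative spread and changed only transcripts above a set count level. Its rates hold for that setting and are not error rates of the real libraries, where genes differ in spread.

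Members and the 11 other lists (238 entries, 225 genes, all matched) were chosen with earlier results of these data known. Named genes were taken from the members, up to 4 per list and line with the smallest p, the 3 nearest profiles per member, and fixed controls. The markers CD5, CD3G, MPO, S100A8, S100A9 and EPCAM, and genes shared between lists, were named outside this rule. ACTB, a fixed control, was called lower in both lines, with log2 fold changes of -0.15 ± 0.05 in RL and -0.47 ± 0.07 in JeKo-1. In RL, 2, 3, 8 and 12 genes of the T and NK cell, myeloid, epithelial and housekeeping lists were tested. Of these, 0, 0, 1 and 1 were higher and 0, 0, 1 and 2 lower. In JeKo-1, 1, 2, 3 and 12 were tested, of which 0, 0, 1 and 4 were higher and 0, 0, 1 and 2 lower. In the B-cell and MCL list 3 of 12 rose and 3 fell in RL, and 2 rose and 5 fell in JeKo-1. Over all tested genes, 15.1% were higher and 15.3% lower in RL, and 13.4% higher and 14.9% lower in JeKo-1. Counts of replicate libraries differed by more than sampling noise (chi-square 3.41 to 4.55 times its degrees of freedom).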

Additional observations from a re-analysis of the deposited data

Results flagged for a closer look

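The test of the difference between lines picked out 3 results. For ZFP36L1, the log2 fold change in RL minus that in JeKo-1 was 0.98 (adjusted p = 4.5e-04 by edgeR), with falls in all treated libraries of both lines. For ZFP36L2 it was 0.92 (adjusted p = 0.00141), with both treated RL libraries above the controls and both treated JeKo-1 libraries slightly below the control. For IER5 it was 0.37 (adjusted p = 0.00941), with falls in both lines. No group has 4 libraries, so no group could be searched for a stray value.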

How the results depend on the processing

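Of the recomputed values of single genes in the 4 comparisons, 251 kept their direction and their side of the threshold and 7 did not, and the called inhibitor effects in RL and JeKo-1 kept both under every alternative run. The 5 values that changed sign belong to genes that were not called. Leaving out 1 library at a time gave -0.23 to 0.155 for ZFP36 in JeKo-1 (above 0 without treated replicate 1). The line difference of IER2 ran from -0.149 to 0.0521 (above 0 without RL control replicate 1, and 0.043 without JeKo-1 treated replicate 2), and that of ZFP36 from -0.336 to 0.0485 (above 0 without JeKo-1 treated replicate 2). IER2 between untreated lines ran from -0.0359 (without RL control replicate 1) to 0.165. The other 2 values are the line difference of IER5 by DESeq2 (0.34; adjusted p = 0.0691) and IER3 between untreated lines without RL control replicate 1 (0.46; adjusted p = 0.0456). Counts of called members stayed within 1.5 times of those reported. Over all genes, DESeq2's Wald test called 2956 in RL in place of 4543 and 1581 in JeKo-1 in place of 3970. Without 1 treated library, 2397 (replicate 1) and 2931 (replicate 2) genes were called in JeKo-1, in a model that assumes the lone treated library to vary like the other groups. The cause of these lower counts was not tested.

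Replicate numbers are shared by the RL groups, but no label says that they mark a shared batch, and deviations of same-numbered libraries had a correlation of -0.0546. With replicate number as a block, RL gave 4416 called genes, and log2 fold changes of -1.09 for IER2, -0.75 for IER3, -0.45 for IER5, -0.18 for ZFP36, -0.62 for ZFP36L1 and 0.77 for ZFP36L2, with the same calls. No paired analysis was possible for JeKo-1 because its groups share 1 number. The JeKo-1 control could not be left out, and no member has a second transcript, so that alternative was not run. Few reads limit IER3, and ZFP36 and ZFP36L1 in JeKo-1.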
